A study of Homo sapiens with 12 samples.

Results

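The genes described here decide whether a cell dies when a ligand of the tumour necrosis factor family binds its surface. They are the receptors of the ligand TRAIL (TNFRSF10A, TNFRSF10B, TNFRSF10C and TNFRSF10D), the receptor FAS, TRAIL itself (TNFSF10), the caspase-8 regulator FLIP (CFLAR), and the inhibitors of apoptosis cIAP1 (BIRC2), cIAP2 (BIRC3) and XIAP. The 10 genes were chosen by name, with every probe set of the array that the platform annotation assigns to one of them and to no other gene. This gave 43 probe sets for 9 genes, of 54613 probe sets and 19775 genes tested in all. CFLAR had 14 probe sets, XIAP 7, FAS 5, TNFRSF10B and TNFRSF10C 4 each, TNFRSF10A and TNFSF10 3 each, TNFRSF10D 2 and BIRC2 1. No probe set was paired with BIRC3 in the annotation used, so BIRC3 was not analysed here.

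RNA was measured in 4 human breast cancer lines, all derived from SKBR-3, an established HER2-positive adenocarcinoma line. SKR6LR is a population of SKR6 that was kept for months under lapatinib, an inhibitor of the HER2 and EGFR kinases, at doses raised between 0.2 and 5 µM. SKR6CA is SKR6 transduced with CAp65, a p65 (RELA) that is always active, and p65 is a subunit of the transcription factor NF-kB; the cells were selected with puromycin. SKR6-Vector carries the empty pQCXIP retrovirus and went through the same selection, and SKR6 is the SKBR-3 fraction sorted for high HER2 from which the other lines came. Each line had 3 arrays from cultures grown for 48 hours, which the labels call biological replicates; lapatinib maintenance at 0.2 µM is stated for cells written SKLR, read here as SKR6LR. Each of the 3 derived lines is 1 derivation as far as the labels say, so the p-values measure the spread among cultures and not among derivations. SKR6LR was set against SKR6 and SKR6CA against SKR6-Vector, with SKR6-Vector and SKR6CA each set against SKR6 as the measure of what transduction and selection changed.

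Death receptors trimerise on their ligand and recruit the adaptor FADD, which brings in and activates caspase-8. FLIP resembles caspase-8 without being a working protease and competes for that place. The decoy receptors TNFRSF10C and TNFRSF10D bind TRAIL without passing on a complete death signal, the cIAPs attach ubiquitin in receptor complexes, and XIAP binds and blocks executioner caspases directly. CFLAR and the cIAP genes are known targets of NF-kB in other cells, and TNFSF10 is a known interferon-induced gene.

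The deposited values are on a log2 scale, and 1 unit is a doubling. Array medians lay between 5.74 and 5.77. The SKR6LR arrays varied most among themselves, with a typical replicate SD of 0.205 against 0.118 for SKR6CA, 0.105 for SKR6-Vector and 0.107 for SKR6. An SKR6LR array correlated at 0.926 to 0.944 with arrays of the other lines, which correlated at 0.988 to 0.990 with each other. SKR6LR replicate 3 had a difference of 2.32 between the 3′ and 5′ actin controls, against 1.03 to 1.73 on the other 11 arrays. The epithelial markers EPCAM, KRT8, KRT18 and KRT19 were high in every line, although KRT19 was lower in SKR6LR than in SKR6 by -0.94. ERBB2, which encodes HER2, averaged 12.45 in SKR6LR and 13.83 in SKR6, and its neighbour GRB7 averaged 8.88 in SKR6LR and 10.16 in SKR6. CDH1, the E-cadherin gene that SKBR-3 is known to lack, lay between 4.14 and 4.41 throughout. Some markers of other cell types were higher in SKR6LR: CD14 averaged 6.73 there and 5.02 in SKR6, COL3A1 averaged 9.49 in SKR6LR and 4.57 in SKR6, and CDH5 averaged 8.98 in SKR6LR, 8.22 in SKR6CA, 8.10 in SKR6-Vector and 5.14 in SKR6. VWF also rose, by 0.62, but PECAM1 (-0.02), COL1A1 (-0.24), PDGFRB (-0.13), DCN (-0.04) and CD3E (0.11) were not called between SKR6LR and SKR6. PTPRC, which defines leukocytes, lay between 3.92 and 4.30 in all lines. With COL3A1 the one fibroblast marker that rose, the summed level of the 4 measured was 9.91 in SKR6LR and 8.25 in SKR6 on the log2 scale, that of the 3 endothelial markers 9.38 in SKR6LR and 7.39 in SKR6, and that of the 3 leukocyte markers 7.42 in SKR6LR and 6.55 in SKR6. Their part in the results below was not tested. In these bulk samples, more cells of a type and more RNA per cell cannot be told apart.

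RefSeq upstream sequence (GRCh38.p14) of the members was searched on both strands for the NF-kB consensus and for GAAA repeated after any 2 bases, the core of interferon response elements, because one line carries active p65. The window was the 250 bases before each start site. Sequence was at hand for 6 of the 10 genes, with 14 windows. The consensus was found in 3 of them, 1 each of CFLAR, FAS and BIRC3, against 5.21% of 35116 windows of all genes. The GAAA repeat was found in 1, that of TNFSF10, against 3.02% of all windows. Capitals mark the matches in the upstream windows of CFLAR (chr2:201118466-201118715, plus strand, first base of the match at -97 from the start site), FAS (chr10:88991181-88991430, plus strand, -157) and TNFSF10 (chr3:172523431-172523680, minus strand, -187).
CFLAR: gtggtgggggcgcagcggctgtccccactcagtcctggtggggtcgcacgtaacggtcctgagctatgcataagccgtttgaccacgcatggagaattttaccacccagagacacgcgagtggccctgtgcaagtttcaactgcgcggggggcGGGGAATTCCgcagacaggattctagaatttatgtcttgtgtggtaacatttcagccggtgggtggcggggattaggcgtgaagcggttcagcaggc
FAS: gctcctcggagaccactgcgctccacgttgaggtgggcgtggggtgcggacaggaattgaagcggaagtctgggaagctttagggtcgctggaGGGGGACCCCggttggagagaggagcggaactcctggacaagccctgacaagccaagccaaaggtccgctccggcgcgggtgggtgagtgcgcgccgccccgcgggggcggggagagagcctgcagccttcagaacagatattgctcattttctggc
TNFSF10: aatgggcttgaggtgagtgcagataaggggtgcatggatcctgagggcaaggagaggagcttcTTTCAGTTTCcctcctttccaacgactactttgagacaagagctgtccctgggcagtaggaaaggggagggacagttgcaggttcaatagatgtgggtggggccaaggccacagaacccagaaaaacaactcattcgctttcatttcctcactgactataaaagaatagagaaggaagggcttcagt
The other 3 CFLAR windows and the other 2 FAS windows held no match to the consensus, and none of the windows of BIRC2 or XIAP held one. A match describes letters only and does not show that a factor binds there.

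Across the 43 probe sets, 24 were higher and 3 were lower in SKR6LR than in SKR6 at an adjusted p under 0.05 (limma, one mean per line, Benjamini-Hochberg over all probe sets). The same test called 19.0% of all probe sets higher and 25.0% lower. The median difference of the members was 0.28, and that of all probe sets was -0.05. Of the 24 that rose, 11 were CFLAR, 5 XIAP, 4 FAS, 2 TNFRSF10A and 2 TNFRSF10B; the 3 that fell were 1 each of TNFRSF10B, TNFRSF10C and TNFRSF10D. All SKR6LR arrays lay above all SKR6 arrays in 23 probe sets and below them in 3, and the shares over the whole array were 21.2% and 30.1%.

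Few members were called with active p65 in the main test, whose spread is pooled over all lines. More were called with array weights, with one weight per line or with the compared arrays only, as given below. Between SKR6CA and SKR6-Vector, 2 of the 43 probe sets were higher and none was lower, where 9.14% of all probe sets were called higher and 10.2% lower. At an unadjusted p under 0.05 the counts were 5 higher and 2 lower. The 2 were TNFRSF10B 209295_at and CFLAR 209939_x_at. Median differences were -0.03 for the members and 0.01 for all probe sets. All SKR6CA arrays lay above all SKR6-Vector arrays in 7 probe sets and below them in 7, and the share was 19.0% either way over the whole array. The RELA probe sets had no call between these lines: 201783_s_at differed by -0.06 between SKR6CA and SKR6-Vector (adjusted p = 0.789) and 209878_s_at by 0.20 (adjusted p = 0.259). Against SKR6, 209878_s_at was higher in SKR6CA by 0.42 (limma adjusted p = 0.0168), while 201783_s_at differed by 0.18 (adjusted p = 0.257). In SKR6LR, 201783_s_at was higher than in SKR6 by 0.37 (limma adjusted p = 0.00594), and 209878_s_at differed by 0.26 (adjusted p = 0.0638). Whether the RELA probe sets cover the introduced sequence is not given in the sources used here.

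**Figure D1:**
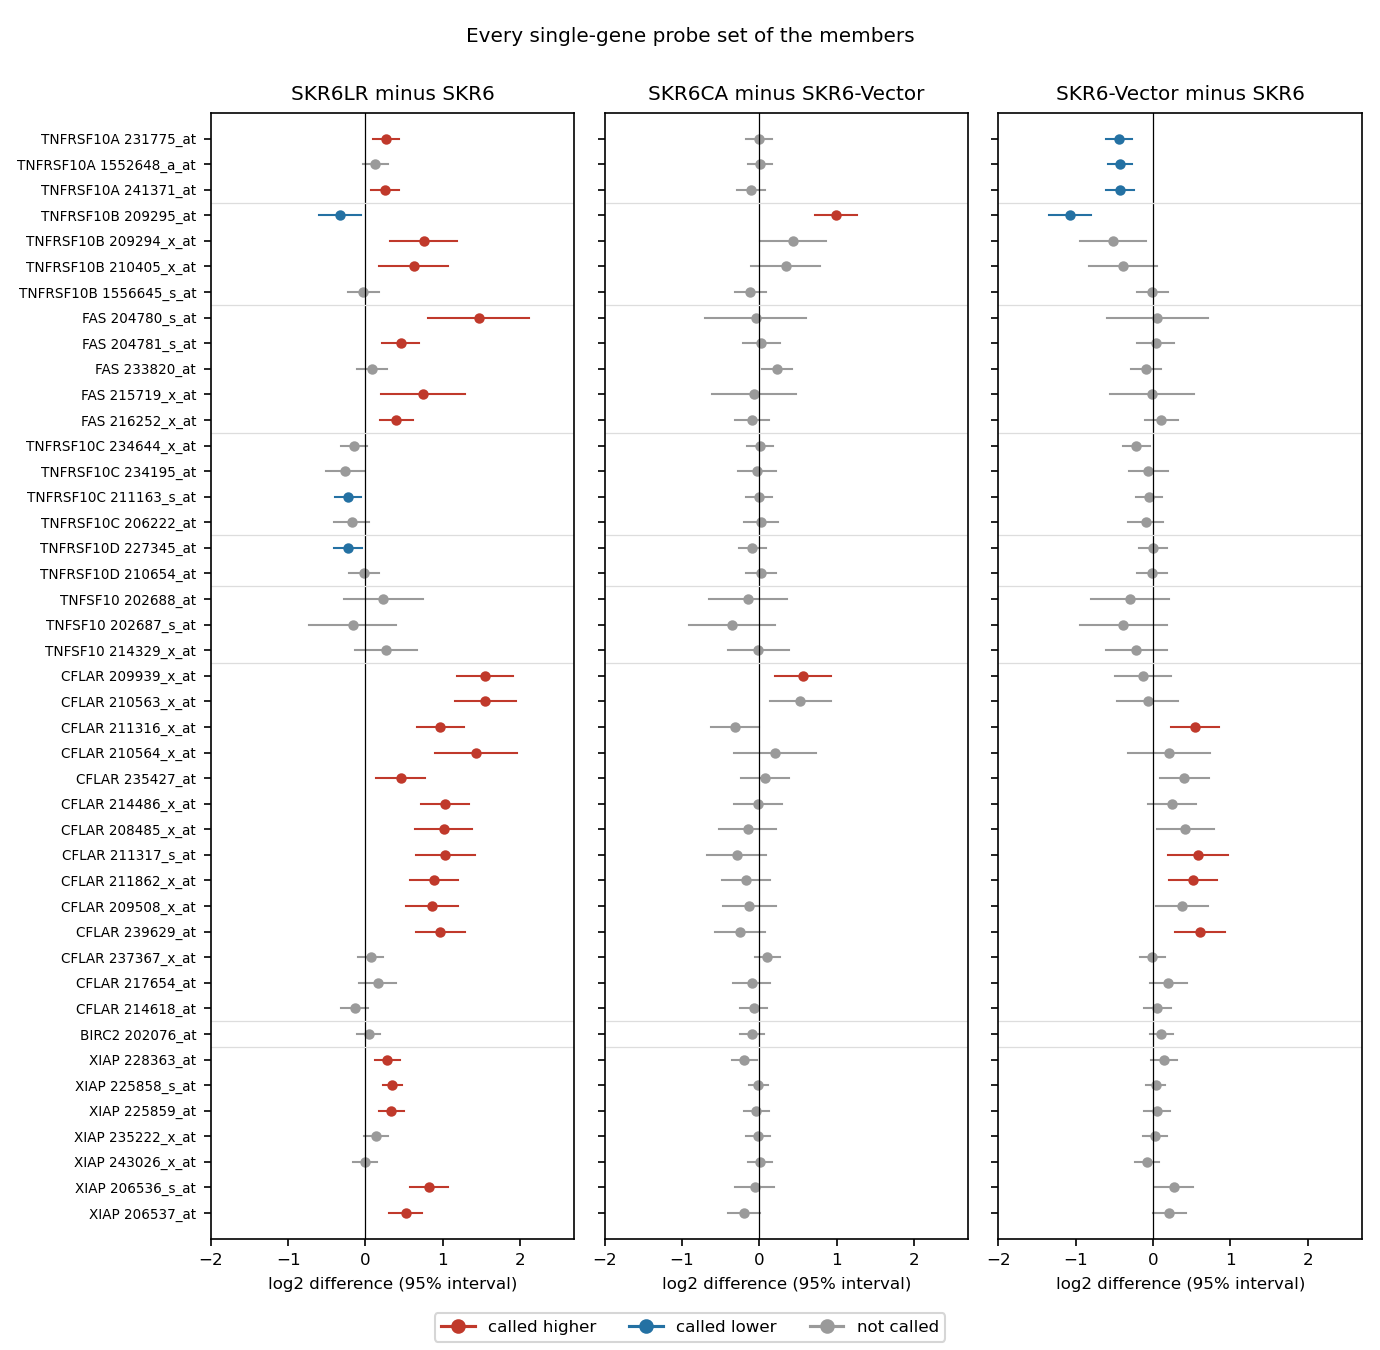
Differences with 95% intervals for each of the 43 single-gene probe sets, on the log2 scale, for SKR6LR minus SKR6, SKR6CA minus SKR6-Vector and SKR6-Vector minus SKR6. Most CFLAR and XIAP points lie right of 0 in the first panel, nearly all points of the second panel are grey (not called), and TNFRSF10A and TNFRSF10B 209295_at lie left of 0 in the third.

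Among the members, SKR6-Vector differed from SKR6 on more probe sets than SKR6CA did from SKR6-Vector. Over all probe sets the order was the reverse, with 9.14% called higher and 10.2% lower between SKR6CA and SKR6-Vector. The counts themselves were not tested against each other. SKR6-Vector had 4 of the 43 probe sets higher and 4 lower than SKR6, near the shares over all probe sets (8.29% and 8.94%). SKR6CA had 1 higher and 3 lower than SKR6 (7.47% and 9.18% of all probe sets). The 2 comparisons share the SKR6 arrays. Lower in SKR6-Vector were all 3 TNFRSF10A probe sets and TNFRSF10B 209295_at, and higher were 4 CFLAR probe sets. Lower in SKR6CA were the same 3 TNFRSF10A probe sets, and the 1 higher was CFLAR 235427_at, by 0.48 (adjusted p = 0.0398), a call that was lost without any one of the SKR6CA, SKR6-Vector or SKR6 arrays or SKR6LR replicate 3 (0.45 to 0.53). The median difference from SKR6 was -0.00 for the members and -0.02 for all probe sets in SKR6-Vector, and 0.01 for the members and -0.01 for all probe sets in SKR6CA.

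The effect in SKR6LR (against SKR6) was set against the effect in SKR6CA (against SKR6-Vector) as a difference of the 2 differences, which uses no array more than once. It was positive in 19 of the 43 probe sets and negative in 1, where 16.0% of all probe sets were called positive and 20.1% negative. The 19 were 10 CFLAR, 5 XIAP, 3 FAS and 1 TNFRSF10A probe sets, and the 1 was TNFRSF10B 209295_at. Of these, FAS 204781_s_at lost its call in 10 of the 12 cases with 1 array left out, all but SKR6LR replicate 1 and SKR6-Vector replicate 2 (0.36 to 0.47), and TNFRSF10A 241371_at in 7 of them (0.29 to 0.37), namely SKR6LR replicate 2, SKR6CA replicates 1 and 2, SKR6-Vector replicates 2 and 3, and SKR6 replicates 1 and 2.

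TNFRSF10A, or DR4, is one of the 2 TRAIL receptors with a complete death domain. Its brightest probe set, 231775_at, read 9.55, 9.76 and 9.73 in SKR6LR, 8.95, 8.90 and 9.06 in SKR6CA, 8.90, 9.09 and 8.93 in SKR6-Vector, and 9.43, 9.37 and 9.45 in SKR6. Every SKR6LR array was above every SKR6 array, and the arrays of both transduced lines were below all of SKR6 while overlapping each other. SKR6-Vector fell by 0.44 ± 0.08 (SE) against SKR6, a 1.36-fold lower level (adjusted p = 0.0014), and SKR6CA fell by 0.44 ± 0.08 (adjusted p = 0.0016). The other probe sets, 1552648_a_at and 241371_at, gave -0.43 and -0.42 for SKR6-Vector and -0.42 and -0.53 for SKR6CA, all called. Between SKR6CA and SKR6-Vector the 3 differences ranged from -0.11 to 0.01 and none was called; for 231775_at the 95% interval was -0.17 to 0.17.

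In SKR6LR, TNFRSF10A 231775_at was higher than in SKR6 by 0.26 ± 0.08 (SE), or 1.20-fold (adjusted p = 0.0149). Without SKR6 replicate 2 the difference was 0.24 and was not called (adjusted p = 0.0539). The probe set 241371_at read 7.34, 7.50 and 7.41 in SKR6LR and 7.07, 7.17 and 7.25 in SKR6. Its arrays did not overlap, and the difference was 0.25 (adjusted p = 0.0255). Leaving out SKR6LR replicate 2 or 3 or SKR6 replicate 1 or 2 ended that call, with differences of 0.21 to 0.26, as did one weight per line (adjusted p = 0.0855). The third probe set, 1552648_a_at, differed by 0.13 and was not called (adjusted p = 0.188), but was called with cyclic loess at 0.26 (adjusted p = 0.0103). In order, TNFRSF10A 231775_at was highest in SKR6LR, then SKR6, then SKR6-Vector and SKR6CA, and only the last 2 neighbours did not differ (adjusted p = 0.995).

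TNFRSF10B, or DR5, the other TRAIL receptor with a death domain, gave the largest change of any member with active p65, on 1 of its 4 probe sets. On 209295_at, SKR6LR read 8.66, 9.27 and 9.11, SKR6CA 9.22, 9.23 and 9.29, SKR6-Vector 8.22, 8.22 and 8.36, and SKR6 9.29, 9.25 and 9.48. All 3 SKR6-Vector arrays stood below every other array, and SKR6CA overlapped SKR6. SKR6CA rose by 0.99 ± 0.13 (SE) over SKR6-Vector, or 1.98-fold (adjusted p = 9.51e-05), and the difference stayed within 0.96 to 1.04 when each array was left out in turn. SKR6-Vector fell by 1.08 against SKR6 (adjusted p = 5.24e-05), while SKR6CA differed from SKR6 by -0.09 (95% interval -0.36 to 0.18, adjusted p = 0.722). The level with active p65 was thus above that of the empty vector line and not above that of untransduced SKR6.

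The TNFRSF10B probe sets differed in direction in SKR6LR. On 209295_at SKR6LR was lower than SKR6 by -0.33 ± 0.13 (SE, adjusted p = 0.0494), with SKR6LR replicate 2 inside the SKR6 range. This call was lost in 15 of 22 alternatives, among them each array left out except SKR6LR replicate 2. Without SKR6LR replicate 1 the difference was -0.15 (adjusted p = 0.181), without SKR6 replicate 3 it was -0.26 (adjusted p = 0.174), and without any other single array it lay between -0.45 and -0.33. On 209294_x_at SKR6LR read 7.01, 8.11 and 7.66, against 6.88, 6.77 and 6.87 in SKR6, so all SKR6LR arrays were above. That probe set rose by 0.75 ± 0.20 (SE), or 1.69-fold (adjusted p = 0.00697). Without SKR6LR replicate 2 the value was 0.50 (adjusted p = 0.0204), still a call. A similar probe set, 210405_x_at, rose by 0.62 (adjusted p = 0.0253), with 6.46, 7.57 and 7.09 in SKR6LR and 6.41, 6.52 and 6.31 in SKR6, which overlap. Without SKR6LR replicate 2 it was 0.36 (adjusted p = 0.0998), and the call was also lost without SKR6LR replicate 3, SKR6 replicate 1 or SKR6 replicate 3 (differences of 0.57 to 0.62). The fourth, 1556645_s_at, differed by -0.03 (adjusted p = 0.855).

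The effects of SKR6LR on 209294_x_at and 209295_at, which were the largest and the smallest of the gene, lay 1.08 apart. An exact two-sided permutation test of the arrays gave p = 0.1, the smallest that 3 arrays against 3 allow, for a pair picked by its values. With active p65 the effect on 209294_x_at was smaller than that on 209295_at by 0.55 (a gap of -0.55, exact permutation p = 0.1). There 209294_x_at differed by 0.44 (adjusted p = 0.167) and was called with array weights, with one weight per line, with the compared arrays only, and without SKR6LR replicate 1 or 2. Of the 43 probe sets, TNFRSF10B 209295_at was the only one called with a negative difference of effects: -1.32 ± 0.18 (SE, adjusted p = 5.18e-05).

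FAS, the receptor of FAS ligand, was higher in SKR6LR on 4 of 5 probe sets and had no call in the transduced lines. On 204780_s_at SKR6LR read 5.07, 6.79 and 5.63, and the 9 other arrays lay between 4.26 and 4.59. All 3 SKR6LR arrays were above the others but were far apart among themselves. SKR6LR averaged 5.83 ± 0.88 and SKR6 4.36 ± 0.07 (SD, n = 3 each), a difference of 1.47 ± 0.30 (SE), or 2.76-fold (limma adjusted p = 0.00123). Without SKR6LR replicate 2 it was 0.98 (adjusted p = 0.000114). Whether FAS was above background in SKR6 is not known from these values, so the fold is one of the deposited values and may understate the difference. The probe sets 204781_s_at and 216252_x_at rose by 0.46 and 0.40, and 215719_x_at rose by 0.74 (adjusted p = 0.0277). This last call was lost without SKR6LR replicate 2 (0.36) or SKR6 replicate 2 (0.60), and with a mean-variance trend or the compared arrays only.

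The fifth FAS probe set, 233820_at, differed by 0.09 (adjusted p = 0.476), 1.38 less than 204780_s_at. The exact permutation p of that gap was 0.1, the smallest possible, for a pair picked by its values. On every FAS probe set the values lay under the array medians, also in SKR6LR, except for SKR6LR replicate 2 on 204780_s_at (6.79). With active p65 against the vector the FAS differences ranged from -0.10 to 0.23, and none was called. The difference of effects on 204780_s_at was 1.51 ± 0.43 (SE, adjusted p = 0.0131).

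**Figure D2:**
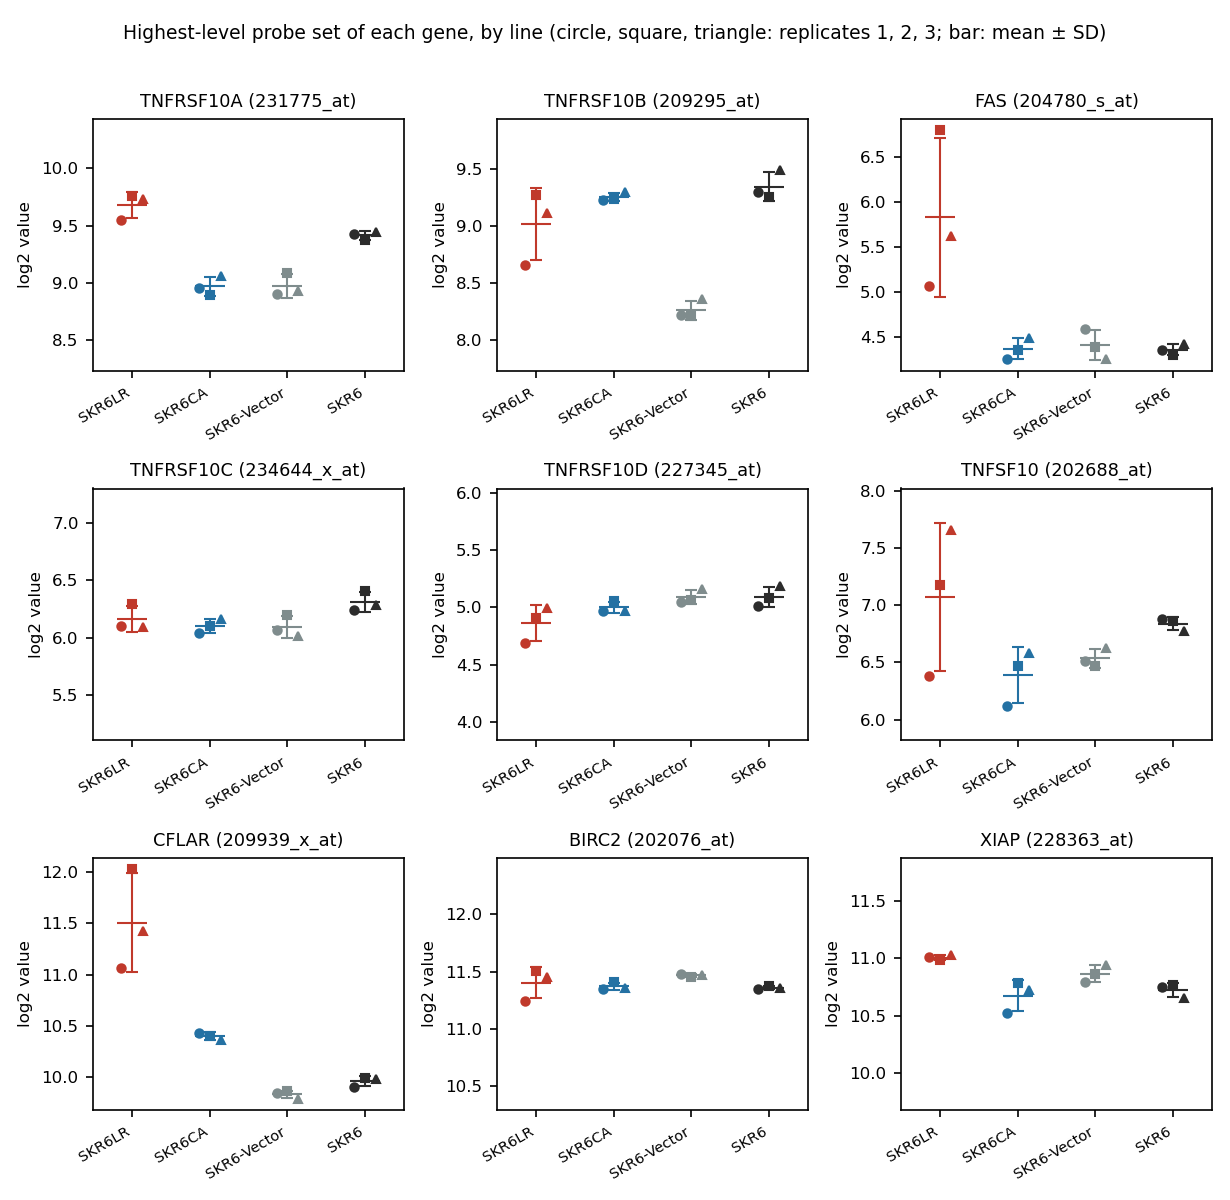
Log2 values of the brightest probe set of each of the 9 genes, with 1 panel per gene and lines in the order SKR6LR, SKR6CA, SKR6-Vector and SKR6; symbols are replicates, bars are the mean and SD, and each panel has its own vertical scale that does not start at 0. CFLAR and FAS are highest in SKR6LR, TNFRSF10B is lowest in SKR6-Vector, and BIRC2 stays between 11.25 and 11.50.

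The decoy receptors differed little between lines. Except for TNFRSF10C 234644_x_at and some values of 234195_at, their values lay under the array medians, and no detection call is at hand. TNFRSF10C 234644_x_at read 6.11, 6.29 and 6.10 in SKR6LR, 6.04, 6.11 and 6.16 in SKR6CA, 6.07, 6.20 and 6.01 in SKR6-Vector, and 6.24, 6.41 and 6.28 in SKR6. All SKR6CA and SKR6-Vector arrays lay below all SKR6 arrays, and SKR6LR overlapped every line. SKR6LR differed from SKR6 by -0.15 (adjusted p = 0.161), SKR6CA by -0.21 (adjusted p = 0.1) and SKR6-Vector by -0.22 (adjusted p = 0.0847). With one weight per line the last 2 were called (adjusted p = 0.0482 for SKR6CA and 0.0255 for SKR6-Vector), and SKR6-Vector was also called with array weights and without SKR6LR replicate 2. TNFRSF10C 211163_s_at read 4.68, 4.71 and 4.51 in SKR6LR and 4.87, 4.89 and 4.82 in SKR6. Its arrays did not overlap, and the difference was -0.22 (adjusted p = 0.0297). All 4 TNFRSF10C probe sets had negative differences, of -0.26 to -0.15. The other 3 were not called, but passed the threshold in some alternatives: 234644_x_at without SKR6LR replicate 2 (-0.21), 206222_at without SKR6LR replicate 1 (-0.29), and 234195_at without SKR6LR replicate 1 (-0.33) or SKR6 replicate 1 (-0.38) and with array weights (-0.34).

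TNFRSF10D 227345_at read 4.69, 4.91 and 4.99 in SKR6LR, 4.97, 5.06 and 4.97 in SKR6CA, 5.05, 5.06 and 5.16 in SKR6-Vector, and 5.01, 5.08 and 5.18 in SKR6. The highest SKR6LR array lay just under the lowest SKR6 array. SKR6LR was lower by -0.23 (adjusted p = 0.0397), and the other TNFRSF10D probe set, 210654_at, differed by -0.02. The calls of 211163_s_at and 227345_at were both lost with one weight per line (adjusted p = 0.0681 and 0.0731), with cyclic loess and with the compared arrays only. Without SKR6LR replicate 3 the difference of 211163_s_at was -0.16 (adjusted p = 0.117), and it was also not called without SKR6 replicate 1 or 2 (-0.22 and -0.21). Without SKR6LR replicate 1 that of 227345_at was -0.14 (adjusted p = 0.152), and without SKR6 replicate 3 it was -0.18 (adjusted p = 0.147). Its call was also lost, at -0.23, without SKR6 replicate 2, SKR6CA replicate 3, or SKR6-Vector replicate 1 or 2. The 6 decoy probe sets differed between SKR6CA and SKR6-Vector by -0.09 to 0.02, with no call.

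TNFSF10, the ligand TRAIL, had no call in SKR6LR, SKR6CA or SKR6-Vector against their controls. The brightest probe set, 202688_at, read 6.38, 7.17 and 7.66 in SKR6LR, 6.12, 6.46 and 6.59 in SKR6CA, 6.51, 6.47 and 6.63 in SKR6-Vector, and 6.88, 6.86 and 6.77 in SKR6. In SKR6LR, 1 array was below all of SKR6 and 2 were above. The difference was 0.23 ± 0.23 (SE, 95% interval -0.27 to 0.74, adjusted p = 0.466). The value rested on single arrays: without SKR6LR replicate 1 the difference was 0.58 and was called (adjusted p = 0.00622), without SKR6LR replicate 3 it was -0.06, and with array weights it was 0.51 and was called (adjusted p = 0.049). The probe set 214329_x_at gave 0.27 with all arrays (adjusted p = 0.272) and 0.52 without SKR6LR replicate 1 (adjusted p = 0.00424). The third probe set, 202687_s_at, differed by -0.17 (adjusted p = 0.65), and by 0.25 without SKR6LR replicate 1.

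In both transduced lines the differences of TNFSF10 from SKR6 did not pass the test. On 202687_s_at SKR6CA read 5.98, 6.32 and 6.06 and SKR6 6.72, 6.88 and 6.97, with no overlap. SKR6CA differed by -0.73 ± 0.26 (SE, adjusted p = 0.0735), or 1.66-fold, and the difference was called with one weight per line (adjusted p = 0.00571), with the compared arrays only, with array weights, with the replicate number as a block (adjusted p = 0.0303) and without SKR6LR replicate 1 or 3. Against SKR6-Vector the 3 TNFSF10 probe sets of SKR6CA differed by -0.35 to -0.01 with no call, although 202687_s_at was called without SKR6LR replicate 1 and with the compared arrays only.

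CFLAR, which encodes FLIP, had the largest rise of the members in SKR6LR, on most of its probe sets. On its brightest probe set, 209939_x_at, SKR6LR read 11.07, 12.03 and 11.43, SKR6CA 10.43, 10.41 and 10.36, SKR6-Vector 9.84, 9.86 and 9.79, and SKR6 9.91, 9.99 and 9.98. The 4 lines stood apart in the order SKR6LR, SKR6CA, SKR6, SKR6-Vector, with no array of one line inside the range of another. SKR6LR rose by 1.55 ± 0.17 (SE) over SKR6, or 2.92-fold (adjusted p = 4.63e-06), and by 1.29 without SKR6LR replicate 2. The probe set 210563_x_at gave 1.55 too, and 210564_x_at gave 1.43. In all, 11 of the 14 probe sets rose, by 0.46 to 1.55, and the smallest of these, 235427_at, was lost without SKR6LR replicate 2 (0.27, adjusted p = 0.076) and without SKR6LR replicate 3, SKR6 replicate 1 or SKR6 replicate 2. Of the remaining 3, 237367_x_at differed by 0.07, 217654_at by 0.16 and 214618_at by -0.14, and none was called.

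With active p65, CFLAR 209939_x_at rose by 0.57 ± 0.17 (SE) over SKR6-Vector, or 1.48-fold (adjusted p = 0.0303). The arrays of SKR6CA and SKR6-Vector were far apart relative to their own SDs of 0.037 and 0.036, but the test uses a spread pooled over all 4 lines. Leaving out any 1 of the 6 compared arrays gave 0.55 to 0.59 with adjusted p of 0.0683 to 0.0908. The probe set 210563_x_at differed by 0.53 (adjusted p = 0.0598), with SKR6CA at 10.10, 10.08 and 10.06 and SKR6-Vector at 9.52, 9.53 and 9.59, and was called with one weight per line (adjusted p = 0.00264) and without SKR6LR replicate 1 or 2. Against SKR6, 209939_x_at of SKR6CA differed by 0.44 (adjusted p = 0.102), and it was called with one weight per line (adjusted p = 0.00742) and without SKR6LR replicate 1 or 2.

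Other CFLAR probe sets ran the opposite way in the transduced lines. On 211316_x_at SKR6LR read 8.39, 9.17 and 8.82, SKR6CA 8.09, 8.03 and 8.04, SKR6-Vector 8.40, 8.38 and 8.31, and SKR6 7.75, 7.89 and 7.82. Here all SKR6-Vector arrays were above all SKR6CA arrays, and both lines were above SKR6. SKR6CA differed from SKR6-Vector by -0.31 ± 0.14 (SE, adjusted p = 0.166), which was called with one weight per line (adjusted p = 0.0229) and without SKR6LR replicate 1 or 2, while SKR6-Vector rose by 0.54 over SKR6 (adjusted p = 0.0173). That rise was not called without SKR6-Vector replicate 1 or 2 or without SKR6 replicate 1 or 3 (0.51 to 0.54). Also higher in SKR6-Vector than in SKR6 were 211317_s_at by 0.58, 211862_x_at by 0.51 and 239629_at by 0.61. The first lost its call without any one of the SKR6CA or SKR6-Vector arrays or SKR6 replicate 1 or 3 (0.48 to 0.61), the second without SKR6-Vector replicate 2 or 3 or SKR6 replicate 1 or 3 (0.42 to 0.52), and the third without SKR6-Vector replicate 3 or SKR6 replicate 1 (0.53 and 0.56).

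The effect of active p65 on 209939_x_at exceeded that on 211316_x_at by 0.88, and the effect of the vector was smaller by 0.67 (a gap of -0.67). Exact permutation tests gave p = 0.1 for each, the smallest possible, and the pair was picked as the largest and smallest effect of active p65 on the gene. Over the 14 CFLAR probe sets the difference between SKR6CA and SKR6-Vector ranged from -0.31 to 0.57 with a median of -0.09. The sign varied with the probe set, but only 209939_x_at was called higher in the main test and none was called lower. In SKR6LR against SKR6 the median over the 14 was 0.97. CFLAR RNA is spliced into long and short forms. Which transcripts each probe set reads is not given in the sources used here.

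**Figure D3:**
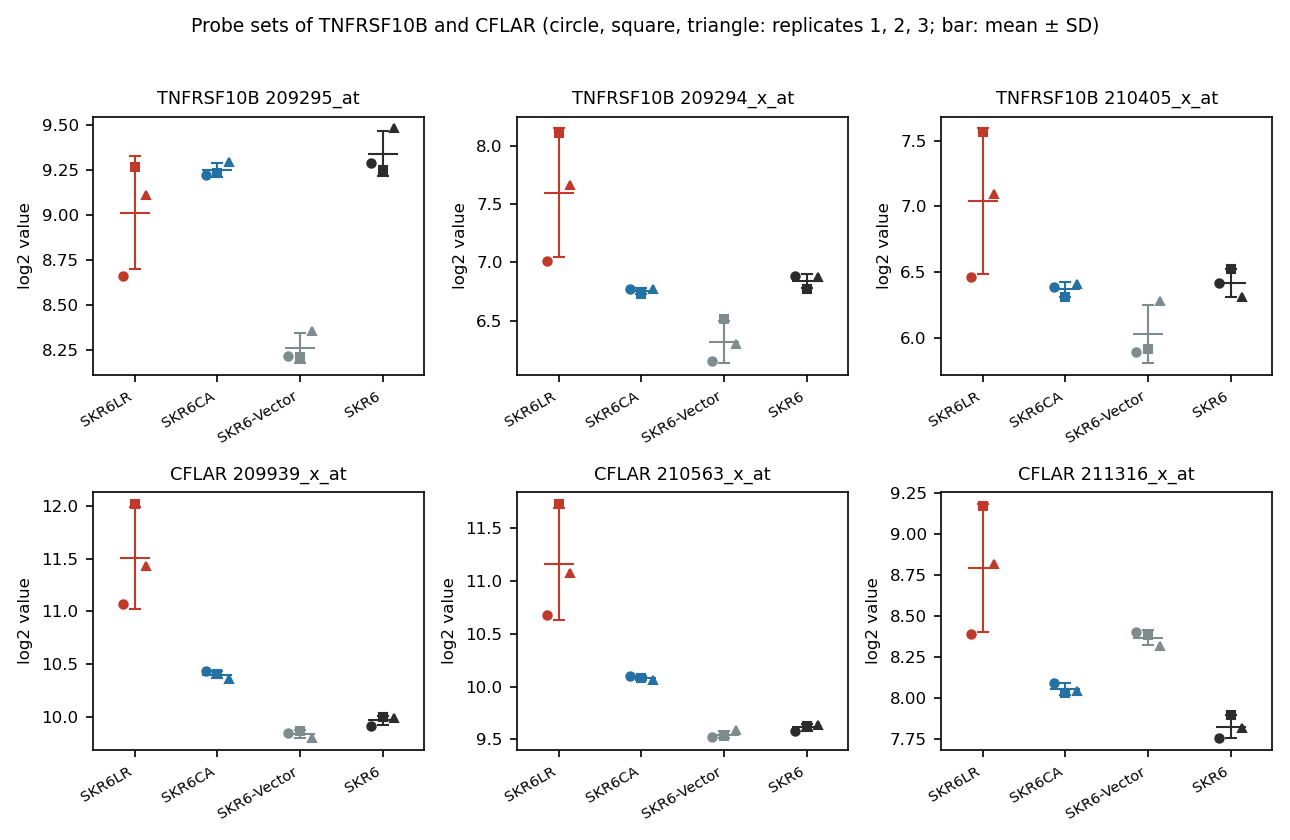
Log2 values of 3 TNFRSF10B probe sets (upper row) and 3 CFLAR probe sets (lower row) in SKR6LR, SKR6CA, SKR6-Vector and SKR6; symbols are replicates, bars are the mean and SD, and each panel has its own scale. SKR6LR lies at or under SKR6 on TNFRSF10B 209295_at and above it on 209294_x_at, and SKR6CA lies above SKR6-Vector on CFLAR 209939_x_at and below it on 211316_x_at.

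CFLAR, CASP10 and CASP8 are neighbours on chromosome 2 in that order in RefSeq. In SKR6LR against SKR6, CFLAR and CASP10 were both called higher, and CASP8 was not called. CASP10, an initiator caspase, averaged 6.97 ± 0.49 in SKR6LR and 5.80 ± 0.10 in SKR6 (SD, n = 3 each), a rise of 1.17 (limma adjusted p = 8.53e-05 over genes). CASP8, the initiator that FLIP holds in check, averaged 9.55 in SKR6LR and 9.65 in SKR6, a difference of -0.09 (adjusted p = 0.398). CASP8 was lower in SKR6CA (9.59) than in SKR6-Vector (10.31), by -0.72 (adjusted p = 5.35e-05), and higher in SKR6-Vector than in SKR6 (9.65) by 0.67 (adjusted p = 0.000108).

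BIRC2, or cIAP1, is a ubiquitin ligase of receptor complexes. Its 1 probe set, 202076_at, read 11.25, 11.50 and 11.45 in SKR6LR, 11.35, 11.41 and 11.36 in SKR6CA, 11.48, 11.45 and 11.47 in SKR6-Vector, and 11.35, 11.38 and 11.35 in SKR6. SKR6LR overlapped every other line, and no comparison above was called. The difference between SKR6LR and SKR6 was 0.04 (95% interval -0.11 to 0.19, adjusted p = 0.692) and that between SKR6CA and SKR6-Vector was -0.10 (95% interval -0.25 to 0.06, adjusted p = 0.439). With cyclic loess the first was 0.20 and passed the threshold (adjusted p = 0.0446).

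XIAP, the direct inhibitor of executioner caspases, was slightly higher in SKR6LR. Its brightest probe set, 228363_at, read 11.01, 10.98 and 11.03 in SKR6LR, 10.52, 10.78 and 10.72 in SKR6CA, 10.79, 10.86 and 10.94 in SKR6-Vector, and 10.75, 10.77 and 10.65 in SKR6. Every SKR6LR array was above all other arrays, and the other 3 lines overlapped in part. SKR6LR rose by 0.28 ± 0.08 (SE) over SKR6, or 1.22-fold (adjusted p = 0.00779). The probe set 206536_s_at read 6.89, 7.13 and 6.97 in SKR6LR and 6.47, 6.11 and 5.93 in SKR6. Its arrays did not overlap, and its rise of 0.82 ± 0.11 (SE), or 1.77-fold, was the largest of the gene (adjusted p = 4.56e-05).

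Of the 7 XIAP probe sets, 5 rose in SKR6LR, by 0.28 to 0.82, and these 5 calls held in every alternative that tested them. The others, 235222_x_at and 243026_x_at, differed by 0.14 (adjusted p = 0.135) and -0.01 (adjusted p = 0.961); with cyclic loess 235222_x_at was called at 0.27 (adjusted p = 0.00513). The gap of 0.83 between 206536_s_at and 243026_x_at had an exact permutation p of 0.1, the smallest possible, for a pair picked by its values. The 7 differences between SKR6CA and SKR6-Vector lay between -0.20 and 0.01, and none was called. The difference of effects was called for the same 5 probe sets, with 0.47 ± 0.11 (SE) on 228363_at (adjusted p = 0.00321).

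Taking 1 probe set per gene, the brightest, 4 of the 9 genes were higher in SKR6LR than in SKR6 (TNFRSF10A, FAS, CFLAR and XIAP) and 2 were lower (TNFRSF10B and TNFRSF10D), where 21.4% of the 19775 genes were called higher and 31.0% lower. The direction of TNFRSF10B turned with the choice: it was called higher, at 0.75 (adjusted p = 0.00606), by its probe set of largest spread, and differed by 0.26 (adjusted p = 0.153) on the mean of its probe sets. TNFRSF10B and CFLAR were higher in SKR6CA than in SKR6-Vector and none was lower (11.7% and 14.9% of genes). Averaging all probe sets of a gene left 0 of the 9 higher with active p65. In SKR6-Vector against SKR6, 2 of the 9 genes were lower and none higher (13.4% and 12.2% of genes), and in SKR6CA against SKR6, 1 was lower and none higher (14.4% and 9.97%). The difference of the 2 effects was positive for 3 genes and negative for 1 (19.8% and 25.6%).

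Beyond the members, 38 of 44 genes of the same pathway were measured with a probe set of their own, and adjustment here was over genes. In SKR6LR against SKR6, 12 were higher, 14 lower and 12 not called, with a median of -0.02 against -0.06 for all genes, and 21.4% of all genes were called higher and 31.0% lower. In SKR6CA against SKR6-Vector, 7 were higher, 5 lower and 26 not called, with a median of 0.05 against 0.00 for all genes, and 11.7% of all genes were called higher and 14.9% lower. The other 6 genes of the list were not analysed here.

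Among ligands, TNF averaged 9.45 ± 0.68 in SKR6LR and 6.22 ± 0.11 in SKR6 (SD, n = 3 each), and 9.02 ± 0.07 in SKR6CA and 6.42 ± 0.13 in SKR6-Vector. TNF thus rose by 3.23 in SKR6LR (limma adjusted p = 1.28e-07) and by 2.60 with active p65 (limma adjusted p = 6.24e-06). TNFRSF11B, or osteoprotegerin, a soluble decoy receptor that also binds TRAIL, averaged 11.88 in SKR6LR and 7.49 in SKR6, and 4.74 in SKR6CA and 5.82 in SKR6-Vector. It rose by 4.40 in SKR6LR (adjusted p = 3.49e-08) and fell by 1.09 with active p65 (adjusted p = 0.0126). Of 6 further receptors, 3 were higher and 2 lower in SKR6LR, where 21.4% of all genes were called higher and 31.0% lower. The largest rises were those of TNFRSF21, or DR6, at 3.69 and TNFRSF1B, a TNF receptor without a death domain, at 3.04.

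Downstream of the receptors, the adaptor FADD rose by 0.42 in SKR6LR and 2 other adaptors, FAF1 and CRADD, fell by 0.90 and 0.89. CASP6, an executioner caspase, fell by 2.74 and BID, which carries the caspase-8 signal to mitochondria, fell by 2.13. BIRC5, or survivin, of the same family as XIAP, fell by 1.70. XAF1, an antagonist of XIAP and a known interferon-induced gene, averaged 12.34 ± 0.76 in SKR6LR and 5.86 ± 0.20 in SKR6 (SD, n = 3 each), the largest difference of the list at 6.47 (limma adjusted p = 5.17e-10). Of the 8 ubiquitin and necroptosis genes 2 were higher and 5 lower, where 21.4% of all genes were called higher and 31.0% lower. MLKL, the effector of necroptosis, was lower by -2.80 and RIPK3, the kinase that activates it, was lower by -0.64. Larger than that of RIPK3 were also the differences of ITCH, at 0.83, and CYLD, at -0.73. With active p65, RIPK3 rose by 0.68 and CASP6 fell by 0.69.

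**Figure D4:**
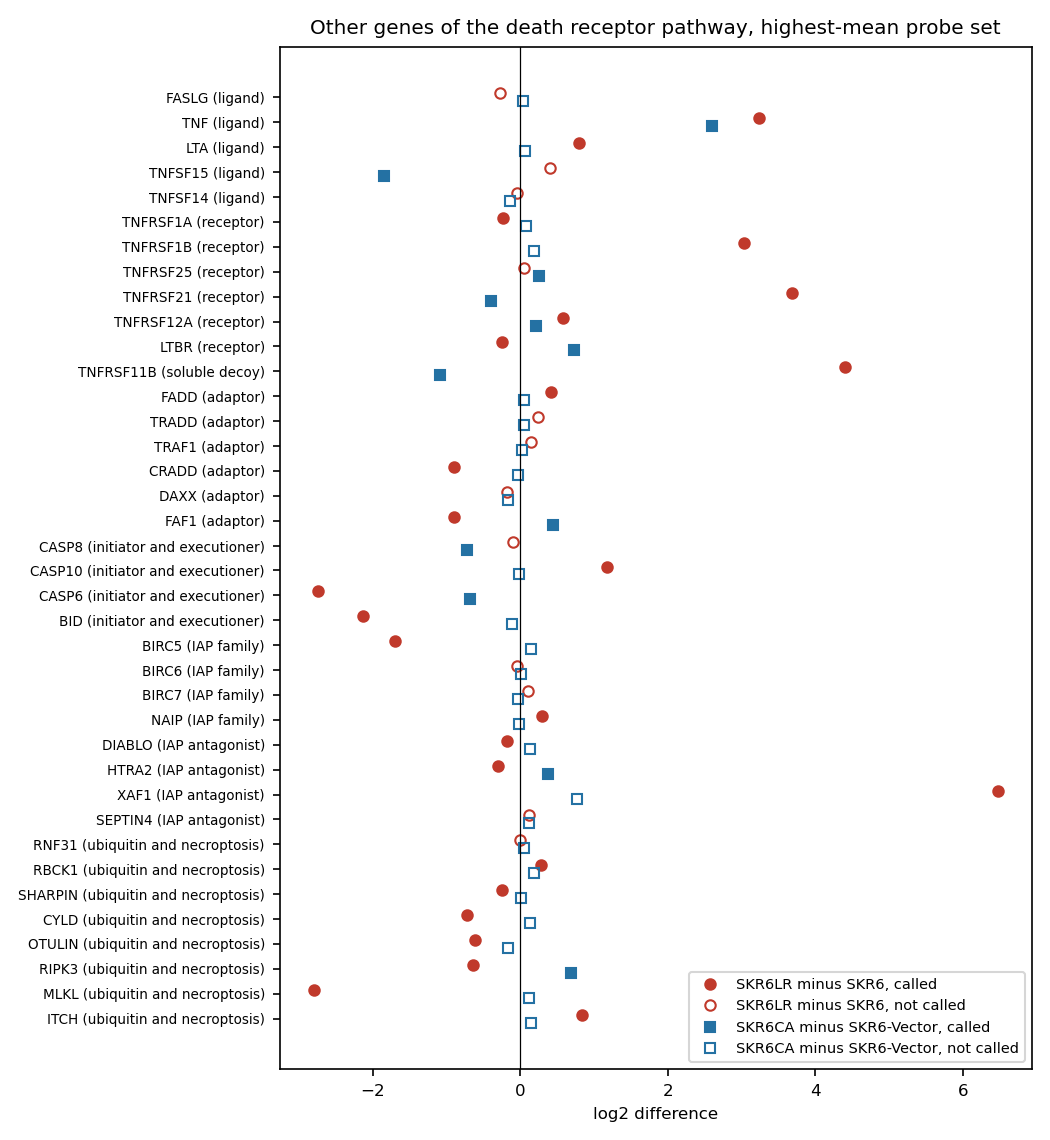
Log2 differences of the 38 other measured genes of the death receptor pathway, by role, for SKR6LR minus SKR6 (circles) and SKR6CA minus SKR6-Vector (squares); filled symbols passed the test. XAF1 lies at 6.47, TNFRSF11B at 4.40 and MLKL at -2.80 in SKR6LR, and TNF lies right of 0 in both comparisons.

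Over the 12 arrays, the genes whose profile was most like that of CFLAR 209939_x_at among 11883 genes were SHC1 (Pearson r = 0.994), CEBPG (0.990) and GADD45A (0.988). For TNFSF10 202688_at they were MOB3C (0.906), LARP1 (0.894) and RBM18 (0.880), and for TNFRSF10D 227345_at, among 11884 genes, YY1AP1 (0.931), SPACA6 (0.923) and MAP2K5 (0.903). These are descriptions over arrays that share 4 lines, and the likeness to CFLAR was not computed without SKR6LR.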

How the data were processed

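Total RNA of 12 cultures was made into biotin-labelled RNA from oligo-dT-primed cDNA and read on 3′ arrays of 54675 probe sets, per the labels' protocols. The deposited values are log2 values. RMA and limma are named in the submitters' processing notes, with no version or setting in the sources used here. RMA values carry no detection call, and the number of arrays limits the precision. Names came from the 2016 platform annotation, and symbols were updated through RefSeq (41043 of 41097 single-gene probe sets matched), and 62 control probe sets were left out.

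The tests used lmFit and eBayes of limma 3.58.1 (R 4.3.3): 1 model with a mean per line, all 12 arrays, a pooled spread and no filter, with Benjamini-Hochberg adjustment over 54613 probe sets. An adjusted p under 0.05 was a call. A second fit took the brightest single-gene probe set of each of 19775 genes. Intervals are 95% and unadjusted. The pooled spread was tested on simulated data. Where all lines varied alike it found 94.0% of changes of 1 (log2) in SKR6LR against SKR6, with 2.48% false calls. With simulated lines that differed in spread as the real ones do, the false share in that comparison was 24.4%. In SKR6CA against SKR6-Vector it was 1.18%. Such a share also depends on how many true changes the simulated data hold, so it is not the share among the real calls.

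Per-array values were given for the brightest probe set of each gene and for up to 3 others whose call differed from it, with further probe sets chosen after their values were seen. Pathway genes named were among the called genes with the largest differences of their role, but not every such gene was named, and CASP8 was added. The likeness rule also took BIRC3, which had no probe set in the annotation used. The members and lists were chosen with earlier results of these data known. Alternatives took the replicate number as a block, left out each array, applied cyclic loess or median centring, fitted robustly with a mean-variance trend, weighted arrays or lines, or used the compared arrays only, a low-value filter, single-gene probe sets only, no _x_at or _s_at probe sets, an adjusted p under 0.01, and for genes other ways to pick or average probe sets.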

Additional observations from a re-analysis of the deposited data

Results flagged for a closer look

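A probe set that the annotation assigns to TNFRSF10C and another gene, 210483_at, stood outside the comparisons above because it is not specific to one gene. It read 5.37, 5.49 and 5.50 in SKR6LR and 5.94, 5.66 and 5.91 in SKR6, with no overlap, and differed by -0.39 (limma adjusted p = 0.00169). The SKR6LR effect minus the SKR6CA effect was -0.39 as well (limma adjusted p = 0.018), with means of 5.45 in SKR6LR, 5.70 in SKR6CA, 5.69 in SKR6-Vector and 5.84 in SKR6. Which of the genes gave the signal was not tested.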

How the results depend on the processing

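No probe set reversed its direction in a called comparison under any alternative run. The _x_at and _s_at probe sets can pair with transcripts of related genes. They were most of the member probe sets and carried most of the higher calls in SKR6LR. Without them, 7 were higher and 1 lower in SKR6LR than in SKR6, and 1 was higher in SKR6CA than in SKR6-Vector. In the same setting, 1 was higher in SKR6-Vector than in SKR6, and 5 had a larger effect in SKR6LR than in SKR6CA. These counts come from fewer probe sets, so they cannot be read directly against the counts out of 43. The share over all probe sets was not taken in this setting. In the main test it was 19.0% higher and 25.0% lower in SKR6LR than in SKR6. How much of the drop comes from such pairing was not tested. The 3 lower calls in SKR6LR became 0 with cyclic loess, group weights, the compared arrays only or an adjusted p under 0.01, and 1 with the low-value filter. Array weights, group weights and the compared arrays only gave 4, 4 and 5 higher and 1, 1 and 3 lower probe sets in SKR6CA than in SKR6-Vector, 5, 4 and 8 higher in SKR6CA than in SKR6, and 7, 8 and 8 higher and 7, 7 and 8 lower in SKR6-Vector than in SKR6. For SKR6CA lower than SKR6, group weights and the compared arrays each gave 5, and for a smaller effect in SKR6LR than in SKR6CA array weights gave 2. An adjusted p under 0.01 left 1 higher in SKR6CA than in SKR6-Vector and 0 higher in SKR6CA or SKR6-Vector than in SKR6. The cause of these changes was not tested.

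Leaving out each array gave 20 to 26 higher and 0 to 4 lower in SKR6LR, 1 to 4 higher and 0 to 2 lower in SKR6CA against SKR6-Vector, 0 to 7 higher and 3 to 5 lower in SKR6CA against SKR6, 1 to 7 higher and 4 to 7 lower in SKR6-Vector, and 17 to 27 positive and 1 to 1 negative differences of effects. Over genes, averaging probe sets gave 1 lower in SKR6LR (TNFRSF10C, and neither TNFRSF10B nor TNFRSF10D), 0 higher in SKR6CA than in SKR6-Vector and 0 negative differences of effects. Taking the probe set with the largest spread gave 1 lower in SKR6LR (TNFRSF10D, with TNFRSF10B higher), 1 higher in SKR6CA than in SKR6-Vector, 1 lower in SKR6-Vector and 0 negative differences of effects, and without _x_at and _s_at probe sets there were 1, 1 and 1 higher in SKR6CA against SKR6-Vector, in SKR6CA against SKR6 and among the differences of effects.

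Same-numbered arrays did not deviate together (correlations of -0.0952 to 0.0755, 0 of 18 pairs over 0.1), and the main test did not pair samples by number. Whether same-numbered cultures were handled together is not given in the labels. With the replicate number as a block, 24 were higher and 3 lower in SKR6LR, 2 higher in SKR6CA than in SKR6-Vector, 4 lower in SKR6CA than in SKR6, and 18 had a larger effect in SKR6LR. The compared arrays only could not be used for the difference of effects, which needs all arrays.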

Other observations

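Noncoding neighbours of the members had probe sets of their own. CFLAR-AS1, antisense to CFLAR, averaged 5.49 ± 0.47 in SKR6LR and 4.62 ± 0.23 in SKR6 (SD, n = 3 each), and rose by 0.87 (limma adjusted p = 0.00132). Between SKR6CA and SKR6-Vector it differed by -0.04 (limma adjusted p = 0.938). TNFRSF10A-DT, a divergent transcript next to TNFRSF10A, read 6.32, 6.35 and 6.34 in SKR6LR and 6.90, 7.06 and 7.12 in SKR6, with no overlap. It fell by 0.69 in SKR6LR (limma adjusted p = 4.91e-06), where TNFRSF10A itself was not lower on any probe set. FAS-AS1 differed by 0.10 (adjusted p = 0.345), and the 2 probe sets of TNFRSF10B-AS1 by 0.09 and -0.07, with no call.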
